A study of Mus musculus with 2 samples.

Results

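The cardiac transcription factor genes TBX5, MEF2C, MEIS1, TBX2 and FOXP1 were followed in single-nucleus RNA-seq of the adult mouse right atrium. They were taken by gene symbol, and they are 5 of the 9330 genes that the count tables list; all 5 had counts in both libraries. The tables carry human gene symbols and identifiers although the tissue is mouse, so symbols are written here in capitals as the tables have them. The study introduced the p.G125R substitution of TBX5, a variant carried by a family with Holt-Oram syndrome, into mouse Tbx5 with CRISPR-Cas9, and this experiment asked in which atrial cell types it alters gene expression. The control library came from wild-type adult mice and the G125R library from adult mice heterozygous for Tbx5 p.G125R. Each library is 1 pool of 3 right atria, with nuclei sorted on the DNA stain DAPI and 7000 nuclei loaded on a droplet instrument. The mutation was made in the genome of the line, so every cell type of a G125R atrium carries it. With 1 library for each genotype there was no replicate of either and no test was made. Every interval given is a 95% interval for counting error alone; it covers neither the differences between mice nor those between library preparations.

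TBX5 is a T-box transcription factor that binds DNA through its T-box domain and drives the gene program of atrial cardiomyocytes, the contractile cells of the atrium, together with partners such as GATA4 and NKX2-5. TBX2 belongs to the same family but acts mainly as a repressor, best known for holding back chamber myocardial genes in the developing atrioventricular canal. MEF2C is a MADS-box activator of muscle genes that also serves endothelial and blood lineages, MEIS1 is a homeodomain factor of the TALE class that limits cardiomyocyte proliferation after birth, and FOXP1 is a forkhead repressor with roles in endothelium, myocardium and blood cells.

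In the mouse genome (GRCm38) the genes lie at chr5:119832668-119885219 (Tbx5), chr13:83504034-83667080 (Mef2c), chr11:18879817-19018985 (Meis1), chr11:85832551-85841948 (Tbx2) and chr6:98925338-99522721 (Foxp1); Meis1 and Foxp1 are on the minus strand. The mutated residue sits in the T-box, the domain that TBX5 shares with TBX2. The mouse coding sequence around it is printed because it shows what the G125R allele changes and how alike this stretch is in another member (GENCODE vM21 transcripts, GRCm38). In Tbx5 the 60 bases lie in exon 5 at chr5:119841754-119841813 on the plus strand, and the codon that G125R changes is at chr5:119841763-119841765. In Tbx2 the aligned codons are 173 to 192 in exon 2 at chr11:85834741-85834800, also on the plus strand. In Tbx20, another T-box gene of the atrium, the aligned codon is 172, in exon 3 at chr9:24769679-24769681 on the minus strand, and its 60 bases cross an exon junction. Each is the reference sequence, 5′ to 3′, with the codon of the G125R residue, or the codon aligned to it, in capitals.
Tbx5: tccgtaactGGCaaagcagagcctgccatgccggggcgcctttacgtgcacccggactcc
Tbx2: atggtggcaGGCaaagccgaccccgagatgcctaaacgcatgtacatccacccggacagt
Tbx20: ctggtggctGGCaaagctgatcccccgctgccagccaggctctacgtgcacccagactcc
The capitalized codon is the same in all 3 genes, while 38 of the 60 bases of Tbx2 and 42 of the 60 bases of Tbx20 equal those of Tbx5. The counts are totals per gene and do not tell the G125R transcript from the wild-type one.

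The control library held 3475 nuclei with 560272 counts and a median of 138 per nucleus, and the G125R library held 2933 nuclei with 422811 counts and a median of 108 genes per nucleus, against 118 in the control. Levels are given as counts per 10000 counts of the nuclei concerned; they compare groups of nuclei for 1 gene, not genes with each other. Nuclei were described by the markers they held: 3 or more counts of TTN, the giant sarcomere protein of cardiomyocytes (TTN-rich); COL1A1 or FBLN1, matrix genes of fibroblasts; FLT1 or PTPRB, endothelial receptors; and KCNJ8, a potassium channel gene of mural cells, which wrap small vessels. These markers were sparse. The TTN-rich class held 348 control and 383 G125R nuclei, the COL1A1 or FBLN1 class 964 and 641, the FLT1 or PTPRB class 39 and 38 and the KCNJ8 class 6 and 10, while 1959 and 1736 nuclei held none of them and the remaining 284 of both libraries held markers of more than 1 class. The nuclei were therefore also clustered on all variable genes except the 5 factors themselves. Cluster 1 (2013 nuclei) was fibroblast-like, cluster 2 (1257) was endothelial-like and cluster 3 (962) was cardiomyocyte-like with 394 TTN counts per 10000. Clusters 6 (462) and 7 (246) were cardiomyocyte-like by TNNI3, MYL4, MYH6 and ACTC1 but held less TTN (103 per 10000 in cluster 7), and their leading genes included the respiratory chain gene NDUFV2 and ribosomal protein genes. Clusters 4 (616), 5 (568) and 8 (143) had fewer than 3 markers of any type and stay unnamed. Cluster 9 (141) was higher in 3 fibroblast markers, COL1A2, COL3A1 and BICC1, but was left unnamed by choice. None of the 3 was among its 10 leading genes, which began with ELAVL2 and BNC2. The leading genes of clusters 1, 6 and 7 held none of their markers either, and those clusters kept their names. Cluster 4 was led by genes such as BTK, IKZF1 and RUNX1 and held 9 F13A1 and 13 MRC1 counts, and cluster 8 held 8 counts each of KCNJ8 and ABCC9. TTN was also looked for as RNA outside its own cells. It was counted in 97.9% of nuclei of cluster 3 (median 226 counts per nucleus) and in 5.76% of cluster 1 (median 131). TTN was not kept out of the clustering, so these shares are not independent of it. In the COL1A1 or FBLN1 class, where no nucleus has more than 2 TTN counts by definition, TTN was in 11.2% of nuclei (both libraries together). TNNI3 was spread further, in 67.0% of nuclei of cluster 3 and 25.2% of cluster 1, and the part of such RNA in the levels below was not tested.

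**Figure D1:**
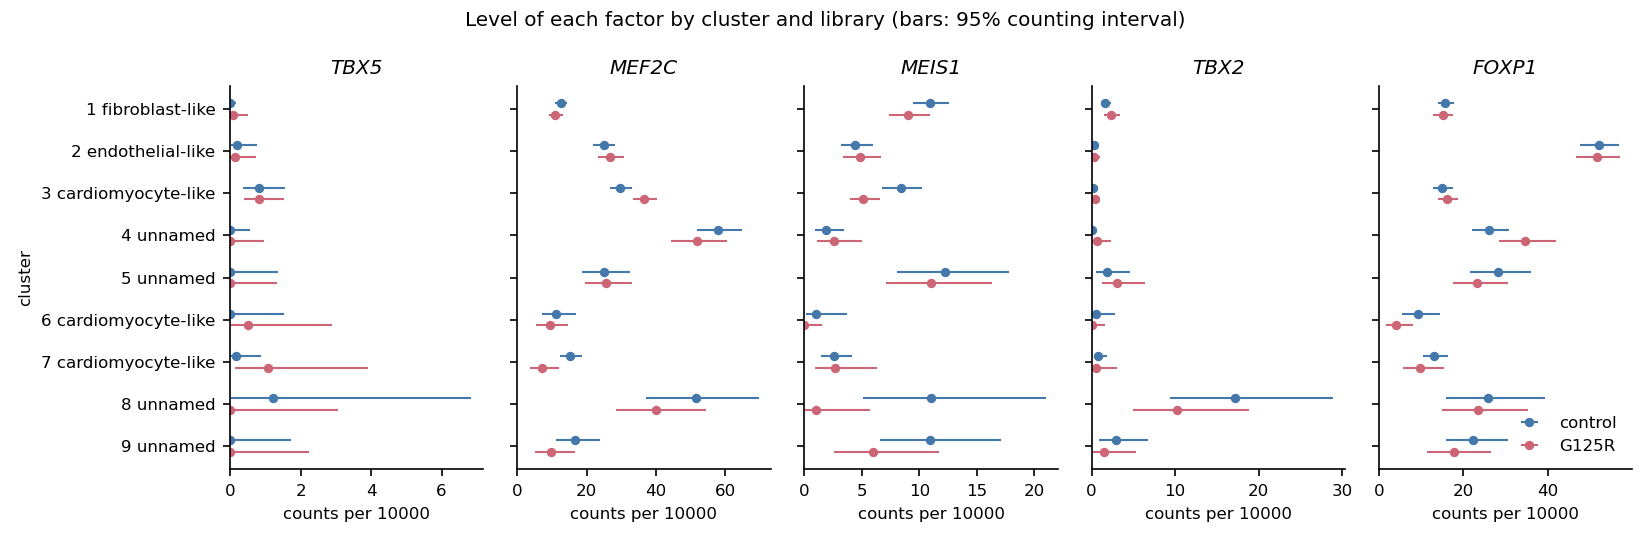
Level of each factor in counts per 10000 (x axis, a scale for each gene) in the 9 clusters (y axis), with control in blue and G125R in red; points are rates over all nuclei of a cluster and bars are 95% counting intervals, or for a count of 0 the level that 3 counts would give. FOXP1 peaks in cluster 2 at 52.0 and 51.8, MEF2C in cluster 4 at 58.0 and 52.0 and TBX2 in cluster 8 at 17.2 and 10.2.

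TBX5 had the fewest counts of the 5 factors and was found mostly in titin-rich nuclei. It had 13 counts in the control and 15 in the G125R library, in 13 nuclei of each, or 0.374% and 0.443% of nuclei. Cluster 3 held 9 of the 13 control counts and 10 of the 15 G125R counts. It made up 12.9% and 17.5% of the nuclei and, as its nuclei were deeper, 19.6% and 28.6% of the counts of all genes. The level there was 0.818 per 10000 (0.374 to 1.55) in the control and 0.828 (0.397 to 1.52) in G125R, and the intervals are too wide to show a difference between the libraries. In the fibroblast-like cluster 1 there was no count in 1176 control nuclei, which allows up to 0.175 per 10000, and 1 count in 837 G125R nuclei. The endothelial-like cluster 2 had 2 and 1 counts, and clusters 4, 5 and 9 had none in either library.

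TTN is also one of the genes that defined cluster 3, so the markers of the same nuclei are not a separate view of it. In the control library, 10 of the 13 nuclei with TBX5 were TTN-rich (76.9%, exact binomial interval 46.2 to 94.96), against 14.1% of nuclei without it. In the G125R library 9 of 13 were (69.2%, 38.6 to 90.9), against 16.8%. The control nuclei with TBX5 held 0, 0, 0, 3, 4, 10, 11, 15, 16, 16, 18, 19 and 36 TTN counts, and the G125R nuclei 0, 1, 2, 2, 6, 6, 7, 10, 12, 12, 21, 23 and 34. COL1A1 or FBLN1 was counted in 2 of the 13 control (15.4%) and 5 of the 13 G125R nuclei (38.5%), against 32.3% and 26.0% of nuclei without TBX5. FLT1 or PTPRB was counted in 1 and 0 of the nuclei with TBX5, and KCNJ8 in none. By class, COL1A1 or FBLN1 nuclei had 0 control and 4 G125R TBX5 counts, and TTN-rich nuclei had 8 in each library. Nuclei with TBX5 were also deeper, with a median of 262 counts in the control, against 137.5 in nuclei without it, and of 226 in G125R. After each nucleus was thinned to 80 counts, TBX5 remained in 3 control and 5 G125R nuclei, too few to compare at equal depth. Of these, 1 control and 2 G125R nuclei were in cluster 3, and 1 and 0 were in the TTN-rich class. The thinned nuclei thus do not show whether TBX5 leads in titin-rich nuclei.

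**Figure D2:**
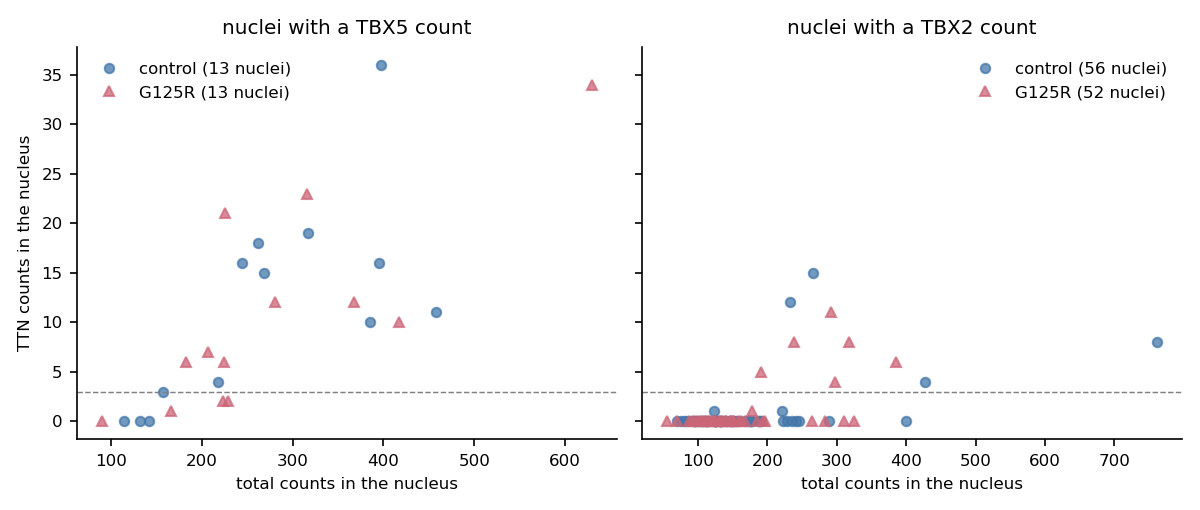
TTN counts (y axis) against total counts (x axis) of each nucleus with a TBX5 count (left) or a TBX2 count (right), with control as blue circles and G125R as red triangles; the dashed line marks 3 TTN counts, from which a nucleus is TTN-rich. Of the 13 TBX5 nuclei of each library, 10 control and 9 G125R nuclei lie on or above the line, and of the 56 and 52 TBX2 nuclei 4 and 6 do.

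TBX2 was not concentrated in titin-rich nuclei. It had 62 control and 55 G125R counts (1.11 and 1.30 per 10000), in 1.61% and 1.77% of nuclei. Of its nuclei, 4 of 56 in the control (7.14%, 1.98 to 17.3) and 6 of 52 in G125R (11.5%, 4.35 to 23.4) were TTN-rich. These intervals hold the 14.4% and 17.1% of nuclei without TBX2. No TBX2 nucleus held FLT1 or PTPRB, which were counted in only 1.49% and 1.63% of nuclei without TBX2. COL1A1 or FBLN1 was counted in 39.3% and 40.4% of TBX2 nuclei, against 32.1% and 25.8% of the others. The small KCNJ8 class had the highest share of nuclei with the gene: TBX2 was counted in 2 of 6 control and 4 of 10 G125R nuclei, together 6 of 16 (37.5%, 15.2 to 64.6; 7 counts), where the TTN-rich class had 0.862% and 1.04%. Of these 6 nuclei the 2 control nuclei were in cluster 8, and the 4 G125R nuclei were in clusters 1, 2 and 4.

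Among clusters, TBX2 was highest in cluster 8, with 14 counts in 65 control nuclei (17.2 per 10000, 9.40 to 28.8) and 10 counts in 78 G125R nuclei (10.2, 4.91 to 18.8). The fibroblast-like cluster 1 had 1.64 (1.09 to 2.37) and 2.32 (1.51 to 3.39). Cluster 9 (2.87) and cluster 5 (1.82) were above it in the control and cluster 5 (3.09) in G125R, from 4 to 7 counts each and with intervals that overlapped that of cluster 1. Clusters 2, 3 and 4 had 0 to 5 counts in each library. The level in cluster 8 was 10.7-fold that of cluster 1 in the control (log2 3.42, 2.35 to 4.37) and 4.55-fold in G125R (log2 2.19, 0.93 to 3.24). TBX2 and MEF2C were the members more than 2-fold higher in cluster 8 than in cluster 1 in both libraries, as were 15.6% of 1627 genes in the control and 13.1% of 1226 in G125R. At 80 counts per nucleus, TBX2 was counted in 16.4% of control and 7.04% of G125R nuclei of cluster 8 and in 1.31% and 2.46% of those of cluster 1. Cluster 8 is small, and a few nuclei decide its level.

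MEF2C was detected in every cluster but had its highest level outside the cardiomyocyte-like clusters. It had 1333 control and 1070 G125R counts, in 26.9% and 26.1% of nuclei. Cluster 4 had the highest level, 58.0 per 10000 (51.7 to 64.9) in the control and 52.0 (44.3 to 60.6) in G125R. Cluster 8 came next at 51.6 (37.2 to 69.7) and 39.9 (28.4 to 54.6), with intervals that overlapped those of cluster 4 in both libraries. The titin-rich cluster 3 had 29.7 (26.6 to 33.1) and 36.7 (33.3 to 40.2), and the endothelial-like cluster 2 had 24.9 (21.9 to 28.3) and 26.8 (23.2 to 30.8). The fibroblast-like cluster 1 was low, at 12.6 (10.9 to 14.4) and 10.95 (9.10 to 13.1), as was cluster 6 at 11.2 (7.05 to 17.0) and 9.30 (5.51 to 14.7). In cluster 4, 471 MEF2C counts stood beside 41 TTN counts, where cluster 3 had 770 and 9088.

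Relative to cluster 1, MEF2C was 4.61-fold higher in cluster 4 in the control (log2 2.21, 1.95 to 2.46) and 4.74-fold in G125R (log2 2.24, 1.90 to 2.60). It was the only member at least 2-fold higher there in the control, where 13.6% of 1953 genes were, and FOXP1 joined it in G125R at 2.30-fold, where 13.4% of 1413 genes were. Cluster 3 was 2.36-fold (log2 1.24, 0.99 to 1.498) and 3.34-fold (log2 1.74, 1.45 to 2.04) above cluster 1, as 14.2% and 15.7% of genes were by at least 2-fold. By co-detected markers, the TTN-rich class had 27.9 and 34.8 per 10000 and the COL1A1 or FBLN1 class 15.8 in both libraries. That is a ratio of 1.76-fold in the control (log2 0.82, 0.56 to 1.08) and 2.20-fold in G125R (log2 1.14, 0.84 to 1.44). Of the 4 members with enough counts, none was at least 2-fold higher in the TTN-rich class in the control, where 12.7% of genes were, and MEF2C alone was in G125R, where 14.9% were. The FLT1 or PTPRB class had 23.2 (13.3 to 37.7) and 32.6 (19.9 to 50.4), from 16 and 20 counts, and the KCNJ8 class had 6 and 7 counts.

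Clusters 6 and 7, named cardiomyocyte-like from TNNI3, MYL4, MYH6 and ACTC1, had less MEF2C than cluster 3. TTN-rich nuclei made up 7.36% of cluster 6 and 13.4% of cluster 7, against 67.7% of cluster 3. The COL1A1 or FBLN1 class made up 18.8% and 24.0%, against 2.60%. Whether clusters 6 and 7 are cardiomyocytes was not tested. Clusters 6 and 7 together had 14.3 per 10000 in the control and 8.19 in G125R, so cluster 3 was 2.08-fold (log2 1.06, 0.75 to 1.38) and 4.41-fold (log2 2.14, 1.64 to 2.74) above them. MEIS1 was higher in cluster 3 as well, by 3.76-fold (log2 1.91, 1.20 to 2.76) and 3.56-fold (log2 1.83, 0.66 to 3.63), and FOXP1 by 1.23-fold (log2 0.30, -0.06 to 0.68) and 2.32-fold (log2 1.22, 0.65 to 1.89). At least 2-fold higher in cluster 3 were 31.1% of 1548 genes in the control and 40.7% of 1315 in G125R. Clusters 6 and 7 also held COL1A1 at 12.6 and 12.5 per 10000, where cluster 3 held 1.65; its part in these values was not tested.

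MEIS1 was higher in the fibroblast-like cluster 1 than in the endothelial-like cluster 2 in both libraries. It had 404 control and 246 G125R counts, in 10.4% and 7.84% of nuclei. Its level was 10.9 (9.42 to 12.6) and 8.995 (7.33 to 10.9) in cluster 1, and 12.3 (8.08 to 17.8) and 11.03 (7.14 to 16.3) in the shallow cluster 5, a difference within the counting intervals. Cluster 9 had 10.9 (6.58 to 17.1) and 5.94 (2.57 to 11.7), and cluster 3 had 8.37 (6.74 to 10.3) and 5.13 (3.93 to 6.58). The endothelial-like cluster 2 had 4.38 (3.16 to 5.92) and 4.83 (3.38 to 6.68), or 0.404-fold and 0.542-fold of cluster 1. Against the titin-rich cluster 3, cluster 2 was lower in the control (0.527-fold; log2 -0.92, -1.496 to -0.39), while in G125R the interval held 0 (0.946-fold; log2 -0.08, -0.72 to 0.53). Cluster 4 had 10 and 8 counts, cluster 6 had 2 and 0, and the FLT1 or PTPRB class had 1 and 0. MEIS1 in cluster 8 had 9 control counts and 1 G125R count, too few to compare. COL1A1 or FBLN1 was counted in 40.3% of control and 33.9% of G125R nuclei with MEIS1, against 31.3% and 25.4% of nuclei without it. The TTN-rich share was also higher with MEIS1, at 21.3% against 13.5% in the control and 24.3% against 16.4% in G125R. Nuclei with MEIS1 were deeper, with a median of 159 counts against 136 in the control and 144 against 124 in G125R.

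FOXP1 was highest in the endothelial-like nuclei. It had 1297 control and 987 G125R counts, in 26.9% and 25.3% of nuclei, and cluster 2 held 38.5% of them in the control and 39.1% in G125R. The level in cluster 2 was 52.0 per 10000 (47.6 to 56.8) in the control and 51.8 (46.7 to 57.2) in G125R. Cluster 1 had 15.8 (14.0 to 17.8) and 15.1 (12.9 to 17.6), and cluster 3 had 15.1 (12.9 to 17.6) and 16.2 (14.0 to 18.7), so neither library separated these 2 clusters. Cluster 4 was between, at 26.2 (22.0 to 30.9) and 34.7 (28.5 to 41.9), and cluster 6 was lowest at 9.20 (5.45 to 14.5) and 4.13 (1.78 to 8.15). Cluster 2 was 3.30-fold above cluster 1 in the control (log2 1.72, 1.51 to 1.94) and 3.41-fold in G125R (log2 1.77, 1.51 to 2.04). In the control FOXP1 was the only member more than 2-fold higher in cluster 2 than in cluster 1, with MEF2C at 1.98-fold, and 11.3% of 2176 genes were; in G125R both were, with MEF2C at 2.45-fold, as were 11.6% of 1670 genes. Against cluster 3 the ratio was 3.44-fold (log2 1.78, 1.53 to 2.05) and 3.19-fold (log2 1.67, 1.42 to 1.93), in a comparison where 26.6% and 23.5% of genes were at least 2-fold higher in cluster 2. At 80 counts per nucleus FOXP1 was counted in 33.4% and 33.1% of nuclei of cluster 2 and in 12.5% and 12.3% of cluster 3 (without thinning, 47.3% and 45.4%, and 28.6% and 28.4%). The markers FLT1 and PTPRB were seen in few nuclei: their class had 27 control FOXP1 counts (39.1 per 10000, 25.8 to 56.9) and 15 G125R counts (24.5, 13.7 to 40.4). It was above the COL1A1 or FBLN1 class by 2.29-fold in the control (log2 1.19, 0.54 to 1.74) and by 1.46-fold in G125R (log2 0.54, -0.38 to 1.27). FLT1 or PTPRB was counted in 2.25% and 2.83% of nuclei with FOXP1, against 1.18% and 1.19% of the others.

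Between the libraries as a whole, MEF2C, FOXP1 and TBX2 differed by less than their counting intervals and MEIS1 was lower in G125R. MEF2C was at 23.8 per 10000 in the control and 25.3 in G125R (log2 ratio of G125R over control 0.09, -0.03 to 0.21), FOXP1 at 23.1 and 23.3 (0.01, -0.11 to 0.13) and TBX2 at 1.11 and 1.30 (0.23, -0.32 to 0.78). MEIS1 was at 7.21 and 5.82, a log2 ratio of -0.31 (-0.54 to -0.08), or 0.808-fold. TBX5 was at 0.232 and 0.355, a log2 ratio of 0.61 (-0.56 to 1.80), an interval from a fall to a rise that its 28 counts cannot narrow. It was the only member past 1.5-fold, at 1.52-fold, as were 16.4% of the 4028 genes with at least 20 counts (6.9% higher, 9.48% lower). It fell short of that fold at 1.498-fold in nuclei with at least 100 counts, 1.30-fold without nuclei above 3 times the median count and 1.24-fold without clusters 6 and 7. MEIS1 alone had an interval without 0, and 12.4% of genes did. The libraries differed in their mix of nuclei, with 33.8% of control and 28.5% of G125R nuclei in cluster 1 and 12.9% and 17.5% in cluster 3. TTN was at 96.0 and 129 per 10000 and COL1A1 at 12.3 and 8.37.

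Within the titin-rich cardiomyocyte-like cluster 3, MEF2C was higher and MEIS1 lower in G125R. MEF2C rates were 29.7 per 10000 from 327 counts in 448 control nuclei and 36.7 from 443 counts in 514 G125R nuclei, a log2 ratio of 0.30 (0.09 to 0.51), or 1.23-fold. MEIS1 rates were 8.37 from 92 counts and 5.13 from 62 counts, a log2 ratio of -0.70 (-1.19 to -0.23), or 0.615-fold. FOXP1 was at 15.1 and 16.2 (0.10, -0.20 to 0.41), TBX5 had 9 and 10 counts and TBX2 had 2 and 5. MEIS1 was the only one of the 3 members with at least 20 counts to pass 1.5-fold, as did 23% of 1708 genes (11.7% lower), and MEF2C and MEIS1 had intervals without 0, as did 10.5%. TTN in cluster 3 was 393 per 10000 in the control and 395 in G125R, and the median nucleus had 231 and 221.5 counts. The TTN-rich class, which shares most of its nuclei with cluster 3, gave 0.32 (0.08 to 0.57) for MEF2C and -0.61 (-1.19 to -0.05) for MEIS1, where 11.4% of genes had intervals without 0. MEF2C was at 0.62 (0.22 to 1.02) in nuclei with markers of several classes, where 19.5% of genes had such intervals, and at -0.22 (-0.39 to -0.05) in nuclei with none, where 8.53% did. TTN in the nuclei with several classes was at 278 per 10000 in the control and 366 in G125R, and its part was not tested. At 80 counts per nucleus MEF2C was counted in 22.2% (18.4 to 26.4) of control and 27.2% (23.3 to 31.3) of G125R nuclei of cluster 3, and MEIS1 in 5.90% (3.89 to 8.52) and 4.17% (2.60 to 6.30). These intervals overlap, and the shares without thinning were 47.3% and 54.1% for MEF2C and 17.2% and 11.1% for MEIS1.

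**Figure D3:**
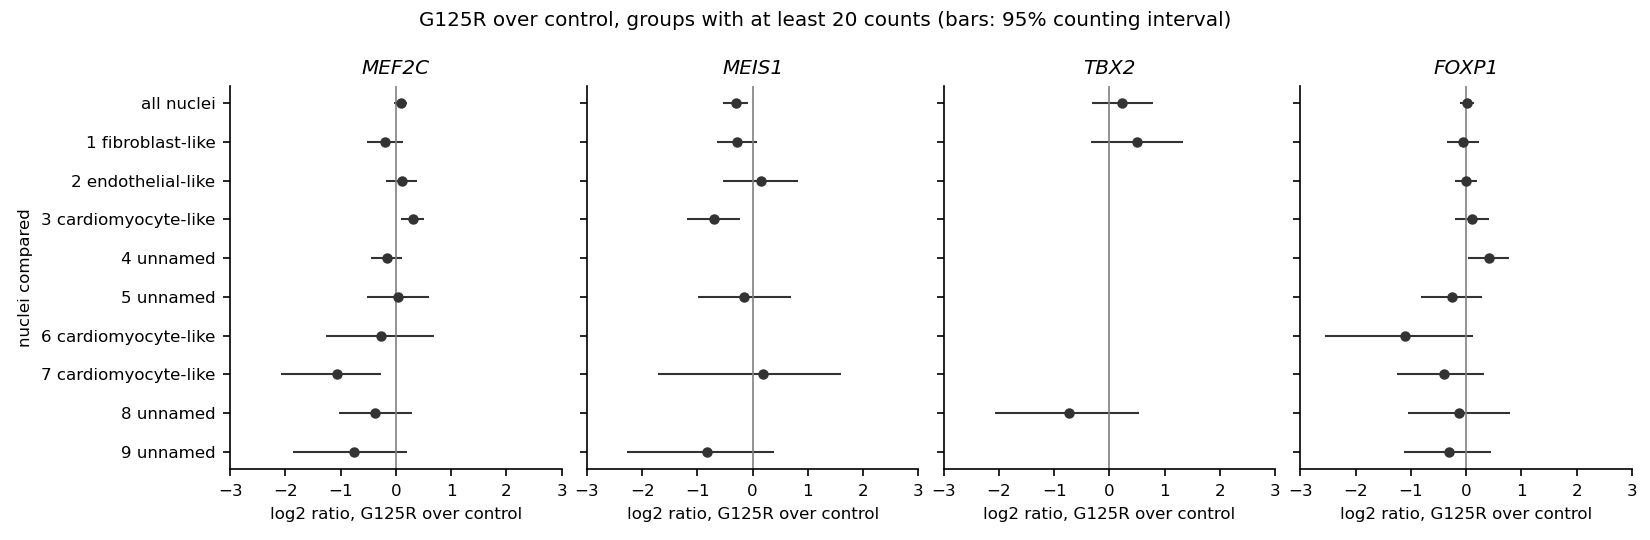
Log2 ratio of G125R over control (x axis) of 4 factors in all nuclei and in each cluster (y axis), with 95% counting intervals as bars; groups with fewer than 20 counts are left out, and TBX5, which had 28 counts in all, is not drawn. In cluster 3 MEF2C lies at 0.30 and MEIS1 at -0.70, both with intervals away from 0, while MEF2C in cluster 7 lies at -1.07.

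In the other clusters few ratios stood apart from 0. MEF2C in the fibroblast-like cluster 1 was at -0.20 (-0.53 to 0.13) and in the endothelial-like cluster 2 at 0.11 (-0.17 to 0.38). MEIS1 was at -0.28 (-0.65 to 0.08) in cluster 1 and 0.14 (-0.54 to 0.82) in cluster 2, and FOXP1 at -0.06 (-0.35 to 0.22) and -0.01 (-0.20 to 0.19). Thus the level of FOXP1 in its leading cluster differed between the libraries by at most about 0.20 on the log2 scale within the counting interval. In cluster 1, no member passed 1.5-fold, as 20.1% of 2198 genes did, and in cluster 2 none did, as 19.7% of 1541 genes did. FOXP1 in cluster 4 was 1.33-fold higher in G125R (0.41, 0.03 to 0.78), among 6.06% of 907 genes with an interval without 0. MEF2C in cluster 7 went from 96 counts in 189 control nuclei (15.2 per 10000) to 13 counts in 57 G125R nuclei (7.02), a log2 ratio of -1.07 (-2.08 to -0.27), where 16.2% of 709 genes were at least 1.5-fold lower and 7.05% had an interval without 0. In the same cluster COL1A1 went from 13.6 to 8.64 and TTN from 94.1 to 132 per 10000, and their part in the MEF2C value was not tested. TBX2 in cluster 8 was at -0.73 (-2.08 to 0.53).

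The wider families gave a background for these values, although how reads shared by related genes such as MEF2A and MEF2C were counted is not known. Of 94 genes listed for the families around the 5 factors, 71 were in the tables and 50 had at least 20 counts; 28 of these were higher and 22 lower in G125R, with a median log2 ratio of 0.02, beside -0.03 for all 4028 genes. Past 1.5-fold were 5 upward (TBX5, PKNOX1, HDAC2, ZFPM1 and HDAC4) and 5 downward (PKNOX2, GATAD2A, HAND2, HOPX and HDAC9), or 10 of 50 beside 16.4% of all genes, and 11 of 50 had an interval without 0 beside 12.4%. Each of the 10 had fewer than 100 counts over both libraries.

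Among T-box genes, MGA, a large repressor subunit (272 and 188 counts; -0.13, -0.40 to 0.15), and TBX20, a cardiac T-box factor (71 and 44; -0.28, -0.86 to 0.28), did not stand apart from 0, and TBX3 had 5 counts in all. In cluster 1 TBX20 had 50 control and 23 G125R counts (2.92 and 2.05 per 10000; log2 ratio -0.496, -1.29 to 0.23). In cluster 3 it had 6 and 14 (0.546 and 1.16 per 10000; 1.02, -0.38 to 2.75), so its ratio had opposite signs in the 2 clusters, each with an interval that held 0. MEF2A, a close relative of MEF2C, was at 16.2 and 15.1 per 10000 (-0.10, -0.25 to 0.05) and, like MEF2C, was highest in cluster 4 (38.5, both libraries together) among the 9 clusters. None of the 5 MEF2 and MADS genes with at least 20 counts passed 1.5-fold. HDAC9, a class II deacetylase that binds MEF2 factors, fell from 66 to 32 counts (-0.63, -1.30 to -0.01), and HDAC4, of the same class, went from 22 to 26 (0.64, -0.23 to 1.54). HDAC5 had 144 and 103 counts (-0.08, -0.46 to 0.30).

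In the TALE class, to which MEIS1 belongs, 7 genes had enough counts. MEIS2 had the most counts, at 17.7 and 19.5 per 10000 (0.14, 0.003 to 0.27). PBX3 was lower in G125R (-0.24, -0.49 to -0.005), PKNOX2 went from 57 to 24 counts (-0.82, -1.59 to -0.13) and PKNOX1 from 7 to 15 (1.45, 0.12 to 3.04). Thus 3 TALE genes, MEIS1 among them, had intervals below 0 and 2 above it, or 5 of 7 beside 12.4% of all genes. Of the FOXP1 relatives and cofactors, FOXP2 was at 4.87 and 4.68 per 10000 (-0.06, -0.33 to 0.21) and was highest in the fibroblast-like cluster 1 (12.5, against 0.411 in cluster 2, both libraries together) among the 9 clusters, where FOXP1 was highest in cluster 2. CHD4, a chromatin remodeler of the NuRD complex, was lower in G125R (10.1 and 8.51 per 10000; -0.24, -0.44 to -0.05). GATAD2A, another NuRD subunit, had 22 and 9 counts (-0.84, -2.19 to 0.29) and HDAC2 had 28 and 32 (0.60, -0.18 to 1.38).

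Among the cardiac partners of TBX5, NKX2-5 and ISL1 had 1 count in each library. GATA4 had 24 and 13 counts (-0.45, -1.58 to 0.55), GATA6 was at 4.48 and 4.30 per 10000 (-0.06, -0.34 to 0.22) and ZFPM2, a cofactor of GATA factors, at 11.8 and 11.9 (0.01, -0.16 to 0.17). NR2F2, an atrial and venous nuclear receptor, was at 11.8 and 12.5 (0.09, -0.08 to 0.26) and, like TBX2, had its highest level in cluster 8 (51.3, both libraries together) among the 9 clusters. HAND2 fell from 59 to 24 counts (-0.87, -1.64 to -0.18), HOPX from 21 to 4 (-1.85, -3.99 to -0.42) and the fibroblast factor TCF21 from 386 to 223 (-0.38, -0.63 to -0.14), while ZFPM1 had 21 and 24 counts (0.59, -0.31 to 1.52). These ratios are over all nuclei, whose mix differed between the libraries. Of the SP and KLF genes, SP and Krüppel-like zinc finger factors, 11 had enough counts and none passed 1.5-fold; KLF7 (9.42 and 9.56 per 10000) and KLF13 (8.94 and 9.60) had the most counts, and KLF15 was 1.42-fold higher in G125R (3.98 and 5.65; 0.51, 0.24 to 0.78).

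**Figure D4:**
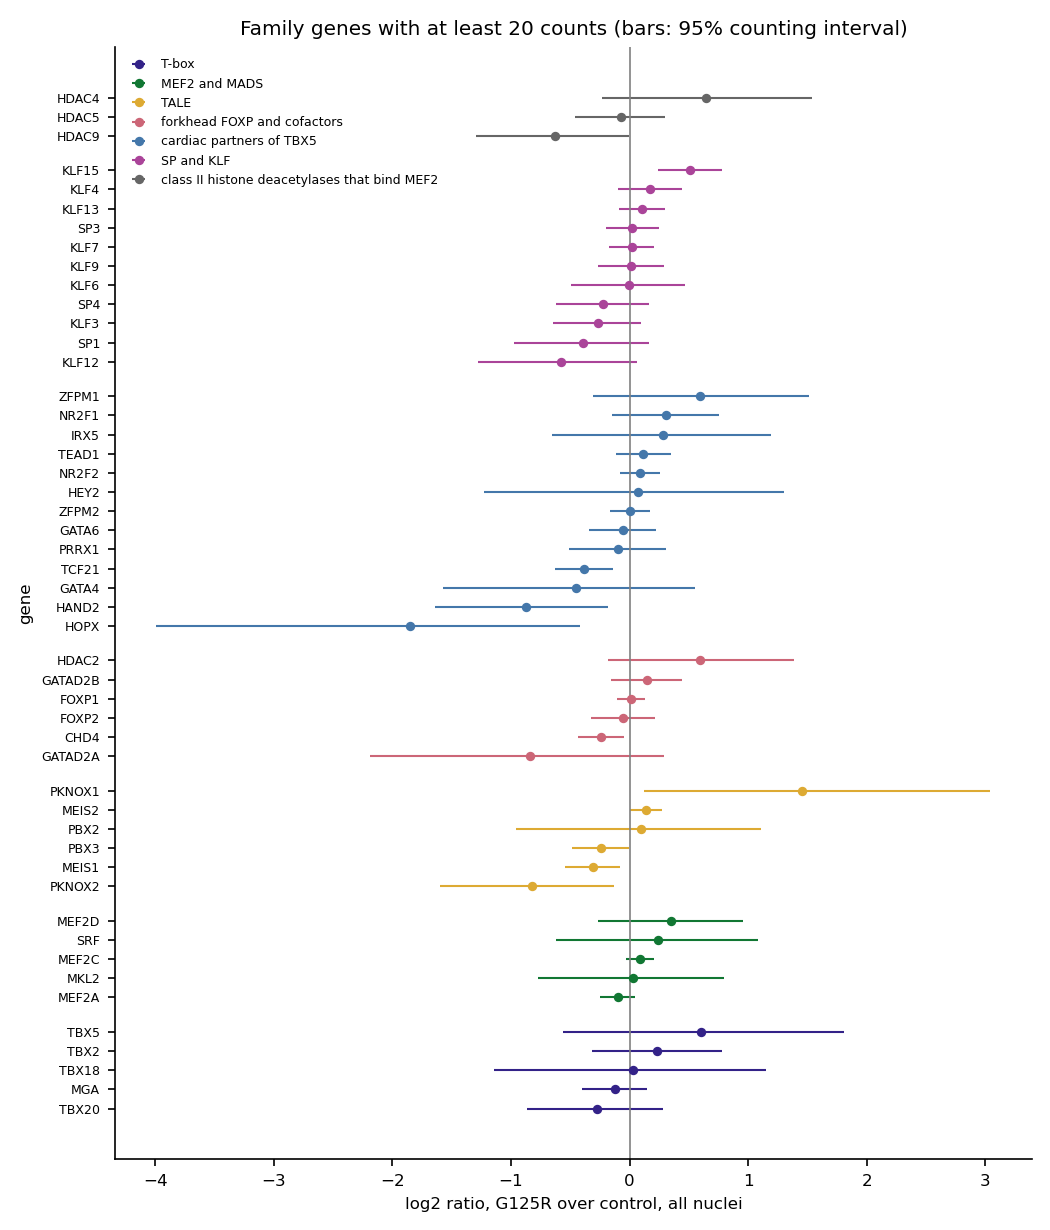
Log2 ratio of G125R over control (x axis) over all nuclei for the family genes with at least 20 counts (y axis, grouped and coloured by family; 1 gene is not drawn), with 95% counting intervals as bars. The ratios lie on both sides of 0, with MEF2A at -0.10, FOXP1 at 0.01, MEF2C at 0.09 and MEIS2 at 0.14, and CHD4 at -0.24 and MEIS1 at -0.31.

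Nuclei with MEF2C held FOXP1 about as often as nuclei without MEF2C did. At 80 counts per nucleus, FOXP1 was counted in 17.7% of 514 control nuclei with MEF2C and in 16.9% of those without, and in 17.9% of 424 and 18.0% in G125R. MEIS1 was counted in 4.67% of control nuclei with MEF2C and 6.12% without, and in 4.48% and 5.22% in G125R. TBX5 and TBX2 left too few nuclei for such a comparison. Over 18 groups of nuclei, the 9 clusters in each library, the genes whose log2 level was most like that of each factor among 1707 genes were ING2, ETV1, PHF20L1, DLEU2 and FILIP1L for MEF2C (Pearson r 0.86 to 0.80), ZNF608, SRSF6, SOCS2, PCMTD1 and NR6A1 for MEIS1 (0.84 to 0.82), MPPED2, ARHGEF25, LHFPL6, AL050403.2 and ROCK1 for TBX2 (0.86 to 0.79) and ZNF362, TRA2A, SRSF7, RBM39 and LUZP1 for FOXP1 (0.86 to 0.84). The 18 groups share 2 libraries and differ in depth, so these values describe likeness only.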

How the data were processed

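The deposited tables hold whole-number counts per nucleus and gene, 1 line for each nonzero value. Per the labels, the authors made 10x Genomics libraries, sequenced them on an Illumina HiSeq and kept nuclei with at least 1000 reads in the R2 platform; 1 nucleus of each library held 1000 counts or more, so that filter was not on these counts. The study's text gives 3475 wild-type and 2933 Tbx5 G125R/+ nuclei, as the tables do. The submitters' processing notes name mm10, whereas all 9330 identifiers are human Ensembl IDs; 7963 share a mouse symbol and hold 93.2% of counts. The aligner and the counter were not given in the sources used here. MEF2C and MEF2A, MEIS1 and MEIS2, FOXP1 and FOXP2, or TBX2 and TBX3 could share reads. A further table, not used, holds the authors' own fold changes and corrected p-values. The authors' cluster labels in the count tables did not separate TTN, so they were not used.

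Rates were set against exact Poisson intervals, shares against exact binomial (Clopper-Pearson) intervals, and ratios (0.5 count added) against exact conditional intervals, at 95%; below 20 counts only counts are given. A level that a count of 0 allows is that of 3 counts. Clustering used 2000 variable genes, without the 5 factors, 30 components, 20 neighbors and Leiden resolution 1.0 (Python 3.11.15, scikit-learn 1.9.0, leidenalg 0.10.2, scipy 1.17.1). A cluster was named from at least 3 markers with 10 counts and a 2-fold excess. Cluster 9 met this and was left unnamed by choice, for its leading genes, which was not done for other clusters. At resolutions 0.5 and 1.5 the clusters led by ELAVL2 and BNC2 were named fibroblast-like. Nuclei with markers of several classes were kept apart as mixed, and no doublet caller was run. The intervals were tested only on simulated Poisson counts, which hold no spread between nuclei or mice. The named family genes are those past 1.5-fold or the 2 most abundant of a family, and TBX3, TBX20, PBX3, FOXP2, NKX2-5, ISL1, GATA4, GATA6, TCF21 and KLF15 were chosen after their values were seen. Values of 2 genes are not reported here; they stay in the counts of genes. Alternatives covered the TTN minimum, mixed nuclei, depth, thinning, clustering, scaling, the count added, the minimum count and the fold. The factors and lists were chosen with earlier results of these data known. The planned alignment of reference proteins was not run; aligned codons were found by local alignment of the translated transcripts.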

Additional observations from a re-analysis of the deposited data

Results flagged for a closer look

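The G125R over control ratio of MEF2C had counting intervals on opposite sides of 0 in different groups of nuclei. Its log2 ratio was 0.30 in the titin-rich cardiomyocyte-like cluster 3 and -1.07 in cluster 7, which is rich in TNNI3 and MYL4. By marker class it was 0.32 in TTN-rich nuclei and 0.62 in nuclei with markers of several classes, and -0.22 in nuclei with no marker. The make-up of these classes differed between the libraries. TTN in the mixed nuclei was at 278 per 10000 in the control and 366 in G125R. Cluster 4, where MEF2C was highest, had no marker in 93.5% of its nuclei and made up 10.6% of control and 8.46% of G125R nuclei. The part of these differences in the ratios was not tested. Each genotype is 1 library, and the difference between these groups was not tested.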

How the results depend on the processing

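No paired analysis was possible because each genotype is 1 library, and a library cannot be left out for the same reason. Of 86 G125R over control ratios listed under alternatives, 26 left the counting interval of the value reported, 23 changed sign and 5 moved by more than 1.5-fold. The 86 include the settings of the minimum count, which leave a ratio unchanged by construction and so say nothing of its stability. They also include the ratio within each marker class and cluster with enough counts, which changes the nuclei compared and not the processing. Of 102 ratios between groups of nuclei, 14 left that interval, 2 changed sign and 6 moved by more than 1.5-fold. The causes were not tested. The MEF2C ratio (0.09 in all nuclei) was 0.32 in TTN-rich, 0.49 in FLT1 or PTPRB, 0.62 in mixed and -0.22 in unmarked nuclei, and -0.20, 0.30, -0.16, -0.27, -1.07, -0.37 and -0.76 in clusters 1, 3, 4, 6, 7, 8 and 9. MEIS1 (-0.31) changed sign in clusters 2 (0.14) and 7 (0.18) and was -0.61 in TTN-rich nuclei, -0.70 in cluster 3 and -0.83 in cluster 9. TBX2 (0.23) was -0.73 in cluster 8 and -0.02 in unmarked nuclei. FOXP1 (0.01) was 0.26 in TTN-rich, -0.66 in FLT1 or PTPRB and -0.24 in mixed nuclei, and 0.41, -0.27, -1.11, -0.40, -0.13 and -0.32 in clusters 4 to 9; its other 5 sign changes were to values between -0.06 and -0.003. The ratio of TTN-rich over COL1A1 or FBLN1 nuclei for MEF2C went from 0.82 to 1.24 in the control with clusters 3 and 1 in place of the classes (1.11 and 1.20 at resolutions 0.5 and 1.5), and in G125R from 1.14 to 1.74 (1.47 and 1.76), or to 0.72 with mixed nuclei counted in every class. For TBX2 in the control it went from -0.97 to -2.87 (-3.07 and -2.80), and to -2.17 without nuclei above 3 times the median count. For FOXP1 in G125R it went from -0.06 to 0.10 with the clusters, at resolutions 1.0 and 1.5. As shares of nuclei thinned to 80 counts, MEF2C in cluster 4 over 1 was 1.91 in the control, FOXP1 in cluster 2 over 1 was 1.33 in G125R, and FOXP1 in cluster 2 over 3 was 1.41 in the control and 1.42 in G125R. The 10 family genes past 1.5-fold became 4 with a minimum of 50 counts and 2 past 2-fold. Leaving out clusters 6 and 7 or nuclei above 3 times the median and, for ratios between clusters, the other resolutions, the minimum of 100 counts and the thinning were chosen after seeing the data. The planned alignment of reference proteins was not run. Depth limits TBX5 most, with 28 counts.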
